A study of Nothobranchius furzeri with 2 samples.

Results

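Skeletal muscle of germ cell–removed (GR) female killifish, Nothobranchius furzeri of the GRZ strain, was compared between 3 months and 1.5 months of age. The comparison comprised 10 of the 80 libraries of the study, 5 at 3 months and 5 at 1.5 months, chosen by treatment, tissue, sex and age. The study asked how the loss of germ cells bears on growth and ageing of the body. Embryos received a morpholino antisense oligonucleotide (MO), a synthetic strand that blocks a transcript, directed at dnd (dead end), a gene that primordial germ cells need to survive, or a control MO. RNA of liver and skeletal muscle was then profiled in both sexes at both ages. All 10 animals described here were females that carried the dnd MO, so age was the only labelled difference between them. Muscle of GR males and of control females, which carried the control MO, was used beside them, with 5 libraries at 3 months and 5 at 1.5 months in each. The study prepared each library from the tissue of a different animal, so the 3-month and 1.5-month fish were not the same individuals. The MO acts in the embryo, and none of the comparisons holds a rescue of the dnd knockdown.

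Skeletal muscle consists mainly of long fibres packed with sarcomeres, in which thick myosin filaments slide along thin actin filaments anchored at the Z-disc. Fibres are wrapped in a collagen matrix that fibroblasts secrete while the tissue grows and then maintain at a lower rate of synthesis. Fast fibres, which make up most of the trunk muscle of fish, draw on glycolysis and phosphocreatine, and they can break down their own proteins through the proteasome and autophagy.

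The RNA was counted by BRB-seq, a method that tags the 3′ end of each transcript with a sample barcode and a unique molecular identifier (UMI), so that each count stands for 1 captured molecule. The 3-month libraries held 170183 to 211750 counts over 6947 to 7828 genes, and the 1.5-month libraries held 80573 to 204639 counts over 4234 to 6489 genes. Replicates 4 and 5 at 1.5 months, with 129246 and 80573 counts, were not reduced to the common number of reads that the other 8 libraries were sampled to, and replicate 5 stood apart on the second principal component. Levels are given as CPM, the counts of a gene relative to the counts of its library in the genes tested, scaled by trimmed mean of M values (TMM) factors, and the floor of 3 counts corresponded to 11.6 to 37.5 CPM on this scale across the libraries. Defining markers of fast skeletal muscle made up a large part of the RNA at both ages, with a summed level of 73430 to 113880 CPM at 3 months and 140933 to 205100 CPM at 1.5 months. Of 9 germ cell and gonad marker rows, 6 were at 0 in all 10 libraries. AMH, anti-Müllerian hormone of the gonad, had 45 to 75 counts per library at 3 months and 18 to 57 at 1.5 months, and 1 row of the germ cell gene DND had 0 to 3 counts per library at 3 months and none at 1.5 months. The list summed to 249 to 366 CPM at 3 months and 182 to 352 CPM at 1.5 months.

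At 3 months, the muscle of GR females held less RNA for collagens and for many myosin, actin and other sarcomere genes, relative to the other genes. Some glycolytic enzymes were lower too, but the balance of the glycolysis list and of the thin filament list depended on the scaling of the libraries. Genes with more RNA included AMPD1, ANKRD1A and ACSF2 (2 OF 2). Of 5368 genes tested with edgeR, 336 (6.26%) passed an adjusted p of 0.05, of which 170 (3.17%) were higher and 166 (3.09%) were lower at 3 months. The median log2 fold change of all tested genes was 0.17. Scaled by plain library size instead, without TMM, 643 genes were higher and 83 lower, since this scaling moved the median of all genes by 0.47 on the log2 scale. Of the 166 lower genes, 97 were in one of the 21 lists described here, against 29 of the 170 higher genes. The lists were chosen with earlier results of these data known, and the share of all tested genes that they hold was not counted. These 2 counts are therefore only a description. The 2 ages did not overlap in 302 genes (5.63% of those tested), 175 higher (3.26%) and 127 lower (2.37%) at 3 months. The lower genes were also the more abundant ones, with a median level of 209 CPM against 66.2 CPM for the higher genes. Calls in both directions were more frequent at higher levels. Of the 1342 tested genes with the highest average level, 118 were called higher and 137 lower. Of the 1342 with the lowest, 5 were called higher and 6 lower. The 6.26% of all genes that is set beside the lists is therefore not matched to level. For lists of abundant genes it is too low a comparison.

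Together, the most abundant transcripts took a smaller share of the RNA. The 13 genes that exceeded 1% of any of the 10 libraries together took 46.5 ± 2.70% of the counts at 3 months and 55.4 ± 2.72% at 1.5 months (SD, n = 5 each), and the ranges of 43.7 to 49.6% and 52.6 to 59.6% did not overlap. These genes were chosen on the same libraries, so the shares are a description. By the edgeR test on TMM-scaled levels, 9 of the 13 were called lower and 2 higher. NME2B.2 and MARK4A were not called, and their mean shares were higher at 3 months. NME2B.2 took 9.26% at 3 months and 8.54% at 1.5 months, and MARK4A 3.29% at 3 months and 2.65% at 1.5 months. MYLPFA, the regulatory light chain of fast myosin, took 5.90% of the counts at 3 months and 9.00% at 1.5 months, and ACTC1B, a striated muscle actin, took 12.3% at 3 months and 15.2% at 1.5 months. ATP2A1L, a calcium pump of the fast-fibre reticulum that was singled out after its value was seen, went the other way, with a log2 fold change of 0.58 (adjusted p = 0.0179).

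**Figure D1:**
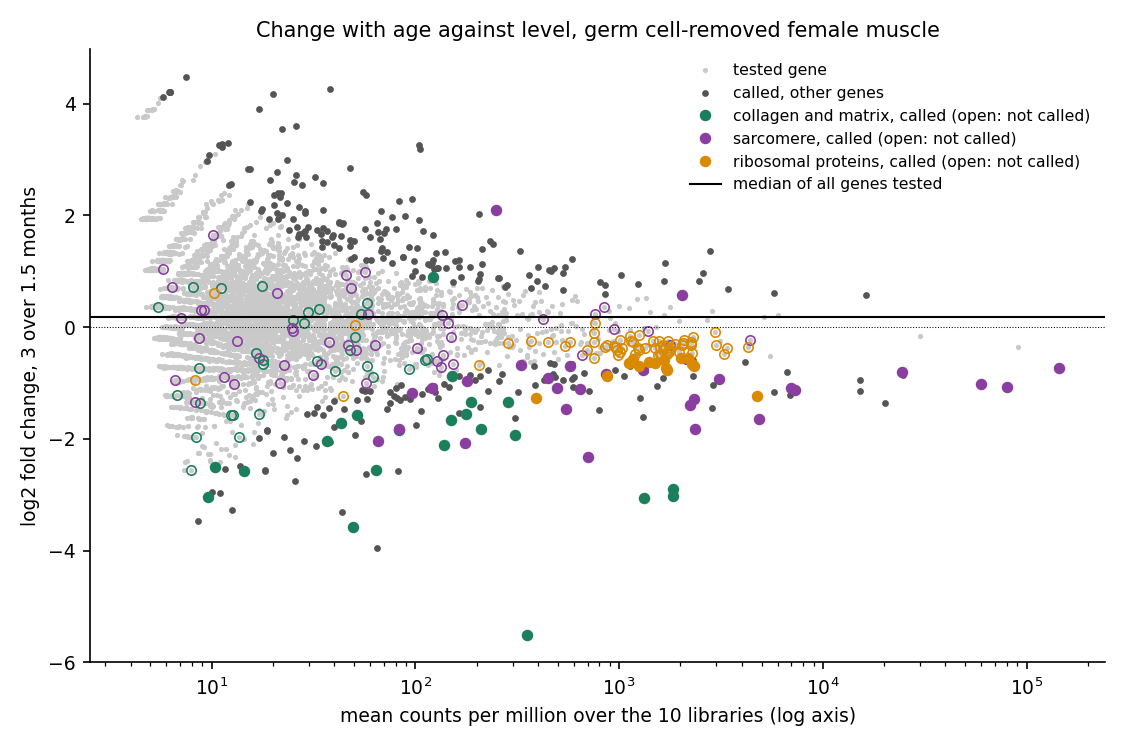
Mean level of each tested gene on a log CPM axis against its log2 fold change, 3 months over 1.5 months, in muscle of GR females, with collagen and matrix, sarcomere and ribosomal protein genes in colour and the median of all genes at 0.17 as a line. Collagen genes lie at the bottom, down to -5.50, and the most abundant genes on the right lie mostly below the line.

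Collagens were lowered together. Of 53 tested genes of the collagen and matrix list, 21 fell and 1 rose, a share of 41.5% beside 6.26% of all genes. The median log2 fold change was -1.34, beside 0.17 for all genes. For 19 members, every 3-month library lay below every 1.5-month library, where 2.37% of all tested genes did so. The summed level of the list was 2180 to 4457 CPM at 3 months and 9675 to 17664 CPM at 1.5 months. These are bulk samples, in which fewer cells of a type and less RNA per cell cannot be told apart. Depending on the alternative processing, 14 to 22 members were called lower.

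Type I collagen, the main fibre of connective tissue, is built from the chains encoded by COL1A1 and COL1A2, and killifish has 2 COL1A1 genes. COL1A2 (Nfu_g_1_013298), on linkage group sgr09 at 8260227 to 8280793, had 424, 366, 259.6, 211 and 774 CPM at 3 months, against 4270.3, 2599.8, 4280.5, 2351 and 2924 CPM at 1.5 months. The highest 3-month library, replicate 5, was still well below the lowest 1.5-month library. The fitted log2 fold change was -3.02 (SE 0.21, adjusted p = 8.91e-26), and the mean at 1.5 months was 8.08 times that at 3 months. COL1A1A, on sgr16 at 2698170 to 2722874, had 269.6, 266, 216, 122 and 552 CPM at 3 months, against 2769, 1814, 3115, 1679 and 2424 CPM at 1.5 months. COL1A1B, on sgr12 at 16044174 to 16064868, had 453, 431, 343, 178 and 757 CPM at 3 months, against 4462, 2556, 4141, 2096 and 2874 CPM at 1.5 months. The 3 genes ranked their 3-month libraries alike, with replicate 5 highest and replicate 4 lowest, and their groups did not overlap. The log2 fold changes were -3.06 (SE 0.22, adjusted p = 1.47e-25) for COL1A1A and -2.91 (SE 0.21, adjusted p = 1.09e-24) for COL1A1B.

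COL10A1 (1 OF 2) had the largest fall of all 5368 genes. Type X collagen is known from hypertrophic cartilage in mammals and from bone-forming cells in fish. This gene (sgr10, 12146622 to 12151042) had 33.7, 15.4, 4.40, 9.36 and 10.8 CPM at 3 months, against 1217, 463, 1026, 109 and 625 CPM at 1.5 months. At 3 months each library held 1 to 7 counts of it, and at 1.5 months 12 to 197 counts. The log2 fold change was -5.50 (SE 0.35, adjusted p = 1.49e-29), and even replicate 4, the lowest at 1.5 months, was above every 3-month library. The other COL10A1 gene, named after its value was seen, moved the same way, with a mean of 7.70 ± 6.16 CPM at 3 months and 91.2 ± 73.6 CPM at 1.5 months and a log2 fold change of -3.58.

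The type V chains, which set the width of type I fibrils, fell as well. COL5A1 averaged 129 ± 53.8 CPM at 3 months and 489 ± 73.6 CPM at 1.5 months (SD, n = 5 each; log2 fold change -1.94, adjusted p = 4.18e-11). COL5A2 (1 OF 2) averaged 51.5 ± 14.8 CPM at 3 months and 225 ± 19.2 CPM at 1.5 months (log2 fold change -2.11, adjusted p = 1.49e-09). SERPINH1B, the collagen chaperone HSP47 of the endoplasmic reticulum, had 24.1, 11.6, 13.2, 18.7 and 27.0 CPM at 3 months, against 129.8, 80.8, 154, 118 and 62.5 CPM at 1.5 months, and did not overlap. Its log2 fold change was -2.56 (adjusted p = 7.24e-08), but its gene overlaps a neighbour on the opposite strand.

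Among the list members named after their values were seen, COL6A1 and COL6A2, chains of the beaded filaments around cells, fell by 1.66 and 1.56 on the log2 scale. The periostins POSTNA and POSTNB, matrix proteins of tendon and growing bone, fell by 1.82 and 1.34. SPARC, a collagen-binding glycoprotein, fell by 1.34, and LOX, the enzyme that cross-links collagen, fell by 1.57. COL4A1, a chain of the basement membrane, fell by the least of the 21, by 0.88. The 1 member that was called higher, S100A10A, overlapped between the ages and lost its call without any of 6 single libraries, namely replicates 2 and 4 at 3 months and replicates 1, 2, 4 and 5 at 1.5 months. Its log2 fold change was 0.89, and 0.74 to 1.11 over the omissions of single libraries.

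Of the 13 fibroblast and tendon marker rows, 9 are themselves in the collagen list. The other 4 rows, FBLN1 and PDGFRA, summed to 0 to 9.63 CPM at 3 months and 0 to 24.7 CPM at 1.5 months, which is near or below the floor at both ages, and the part of fibroblast number in the fall was not tested.

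**Figure D2:**
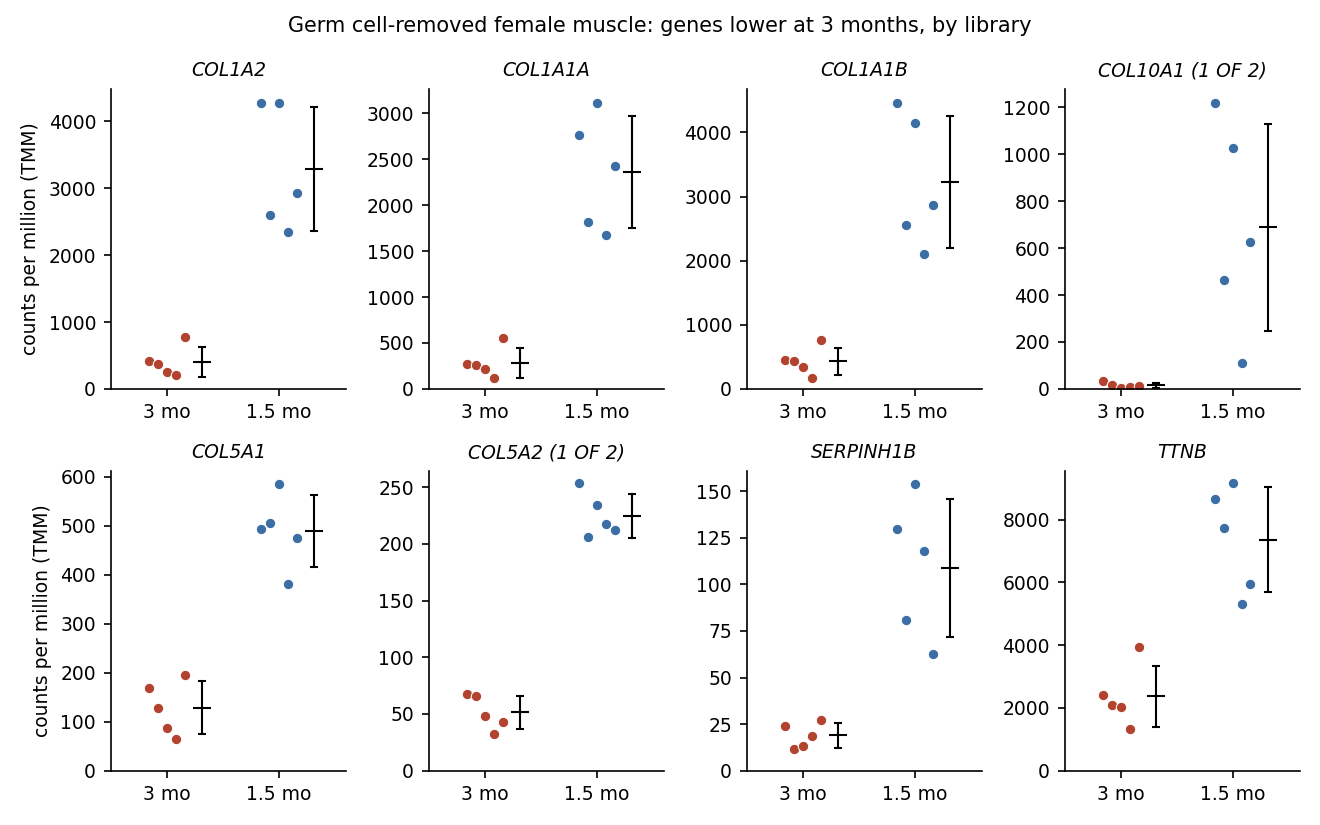
CPM (TMM-scaled) of 8 lower genes in each library of GR female muscle, 3 months left and 1.5 months right, where dots are libraries and bars are the mean ± SD of 5. For each gene all 3-month dots lie below all 1.5-month dots, as for COL1A2 with at most 774 CPM at 3 months and at least 2351 CPM at 1.5 months.

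Sarcomere genes were the second large group. Of 32 tested thick filament genes, 14 fell and none rose (median log2 fold change -0.69), a share of 43.8% beside 6.26% of all genes. Their summed level was 87568 to 133235 CPM at 3 months, against 163599 to 248446 CPM at 1.5 months. Of 43 thin filament and Z-disc genes, 12 fell and 2 rose (median -0.56), a share of 32.6%. With plain library sizes 7 fell and 8 rose. The thick filament list kept 10 lower genes and 1 higher one under that scaling.

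TTNB, one of the titins, the giant springs that span the sarcomere, had 2421, 2087, 2024, 1343 and 3938 CPM at 3 months, against 8658, 7733, 9162, 5309 and 5948 CPM at 1.5 months. The groups did not overlap (log2 fold change -1.64, SE 0.19, adjusted p = 4.09e-12). ACTC1A (Nfu_g_1_018978), a striated muscle actin, had 202, 142, 128, 112 and 611 CPM at 3 months, against 1149, 1616, 1451, 935 and 699.7 CPM at 1.5 months. Replicate 5 at 3 months was about as high as the lowest 1.5-month library, and the other 4 were far below it (log2 fold change -2.32, adjusted p = 9.60e-15). A second gene of that symbol (Nfu_g_1_015319) was much more abundant, overlapped between the ages and fell by 1.09.

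The fast myosin light chain MYLPFA averaged 51375 ± 8763 CPM at 3 months and 108253 ± 20287 CPM at 1.5 months (log2 fold change -1.08, adjusted p = 1.18e-06). Of the myosin heavy chain genes, 3 with the symbol MYH13 (1 OF 7) fell by 1.82, 2.07 and 1.47. These 3 genes share a symbol, and 1 of them overlaps a neighbouring myosin gene on the same strand. Their sequences were not compared, so the division of reads among them is uncertain. MYBPC2B, fast myosin-binding protein C, fell by 1.29 and TPM1, a tropomyosin, by 1.40. TNNI2 (5 OF 5) (Nfu_g_1_005734), a fast troponin I, fell by 1.13. Another tested row of that symbol was not called (log2 fold change -0.56). NEB (Nfu_g_1_005827), the thin filament ruler nebulin, fell by 1.11. Of the other tested NEB rows, Nfu_g_1_005737 fell by 0.92. Nfu_g_1_002713 (-0.86) and Nfu_g_1_009854 (-0.25) were not called. Fast troponin C, TNNC2, had a mean of 36.5 ± 22.3 CPM at 3 months and 129 ± 26.6 CPM at 1.5 months (log2 fold change -1.83). Its 3′ end overlaps that of TAF13 on the opposite strand. TAF13, a subunit of a general transcription factor, was listed at 11411 ± 3115 CPM at 3 months and 29135 ± 3128 CPM at 1.5 months, and whether these reads come from TNNC2 could not be told since the handling of strand in the counting is not given in the sources used here.

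Of 7 tested slow muscle markers, 1 fell and none rose, where 3.09% of all genes fell. Their summed levels of 782 to 3056 CPM at 3 months and 1334 to 2908 CPM at 1.5 months overlapped. The Z-disc components desmin (DES, log2 fold change -0.07, adjusted p = 0.914) and ACTN3B (-0.24, adjusted p = 0.556), both singled out after their values were seen, did not pass the test.

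Of 20 tested genes for calcium handling, 7 fell, none rose and 13 were not called (median log2 fold change -0.58). This was a share of 35% beside 6.26% of all genes, although plain library sizes gave 4 lower and 3 higher. The parvalbumins, soluble calcium buffers that let fast fibres relax quickly, fell with them. PVALB1 had 2017, 1829, 937, 1156 and 1709 CPM at 3 months, against 4314, 6257, 3049, 4048 and 3174 CPM at 1.5 months, without overlap (log2 fold change -1.45, adjusted p = 7.52e-10). PVALB3 and PVALB4 fell by 0.94 and 1.03. CASQ2, a calcium store protein of the reticulum, fell by 1.27, and SRL, sarcalumenin of the same compartment, by 1.04. ATP2A1L, the calcium pump that was called higher at 0.58, was not a member of the list.

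Energy metabolism was split. Of 29 glycolysis and glycogen genes, 10 fell and 2 rose (median log2 fold change -0.10), a share of 41.4% beside 6.26% of all genes. With plain library sizes 4 fell and 5 rose. GAPDH, which oxidizes glyceraldehyde phosphate, averaged 9489.9 ± 1325 CPM at 3 months and 20856 ± 4878 CPM at 1.5 months (log2 fold change -1.14, adjusted p = 1.70e-07), and its 3-month maximum of 10949 CPM was below its 1.5-month minimum of 17773 CPM. Aldolase (ALDOAA, by 0.86), PGAM2, the muscle phosphoglycerate mutase (by 1.43), and enolase (ENO3, by 0.80) fell with it. PFKMA, the muscle phosphofructokinase at the committed step of the pathway, rose instead, with 702 ± 199 CPM at 3 months and 353 ± 64.0 CPM at 1.5 months (log2 fold change 0.97, adjusted p = 0.000375), and its ranges overlapped.

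The 7 tested phosphocreatine and adenylate genes were divided as well, with 3 lower and 2 higher (71.4% called, beside 6.26% of all genes). CKMB, muscle creatine kinase, had 3534, 3701, 3621, 2976 and 3987 CPM at 3 months, against 6588, 8123, 7066, 9911 and 8334 CPM at 1.5 months (log2 fold change -1.17, adjusted p = 7.06e-08). GAMT, the last step of creatine synthesis, and adenylate kinase AK1 fell by 1.08 and 0.88. AMPD1, which deaminates AMP in working muscle, rose. It had 4318, 4644, 4726, 2868 and 3570.3 CPM at 3 months, against 1730.4, 1696, 1605, 1361 and 1474 CPM at 1.5 months, a tight and separate group (log2 fold change 1.35, SE 0.18, adjusted p = 1.48e-09). ADSSL1, which acts beside AMPD1 in the purine nucleotide cycle, rose by 0.93 (adjusted p = 0.000197). None of these 5 calls was lost under any alternative run.

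Of 64 oxidative phosphorylation genes, 3 fell and 2 rose (median log2 fold change -0.12), a share of 7.81% beside 6.26% of all genes. Plain library sizes gave none lower and 15 higher, and the stricter expression filter 2 lower and 9 higher. With TMM factors the summed level of 16748 to 19912 CPM at 3 months lay within 15007 to 23567 CPM at 1.5 months. COX4I2, an isoform of subunit 4 of cytochrome c oxidase, had 125, 204, 176, 126 and 168 CPM at 3 months, against 30.9, 29.4, 22.0, 63.5 and 12.5 CPM at 1.5 months (log2 fold change 2.30, SE 0.35, adjusted p = 7.39e-08), without overlap. Of 26 mitochondrial transport and citrate cycle genes, 2 fell and 2 rose, a share of 15.4%. MDH2, mitochondrial malate dehydrogenase, averaged 3164 ± 340.4 CPM at 3 months and 1775 ± 386 CPM at 1.5 months (log2 fold change 0.83). Of 19 genes of fatty acid use and lipid droplets, 1 fell and 1 was called higher, a share of 10.5%. The lower one was the carrier FABP3 (by 1.14), and the higher one was DGAT1B, whose direction turned in thinned libraries.

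**Figure D3:**
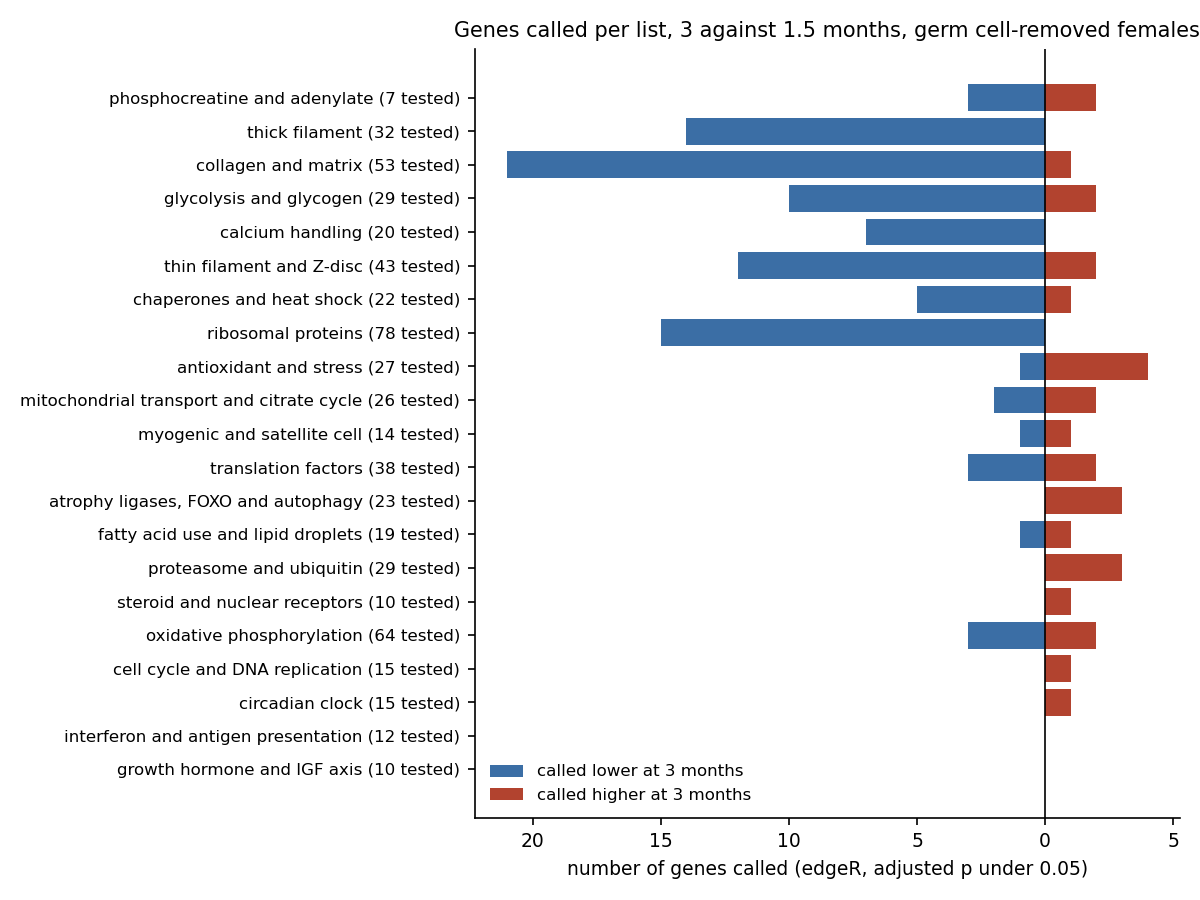
Numbers of genes lower and higher at 3 months than at 1.5 months in muscle of GR females for each of the 21 gene lists, with the number tested. Collagen and matrix (21 lower, 1 higher), ribosomal proteins (15 lower) and thick filament (14 lower) have the longest lower bars, and no list has more than 4 higher genes. Over all genes tested, 3.17% were higher and 3.09% lower.

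The single genes that rose with the lowest adjusted p belonged to several processes. ACSF2 (2 OF 2), an acyl-CoA synthetase of mitochondria, had 149, 246, 154, 323 and 86.6 CPM at 3 months, against 18.5, 36.7, 22.0, 9.08 and 12.5 CPM at 1.5 months. Its groups did not overlap (log2 fold change 3.18, SE 0.38, adjusted p = 1.63e-11), but its gene on sgr12 (12398210 to 12432294) overlaps CHAD, a cartilage matrix gene, on the opposite strand. At 1.5 months every library but replicate 2 was at or below its floor of 3 counts, so the size of the change is uncertain. ANKRD1A, a stress-responsive partner of titin, had 385, 555, 497, 379 and 206 CPM at 3 months, against 129.8, 95.5, 88.0, 81.7 and 62.5 CPM at 1.5 months. Every 3-month library exceeded every 1.5-month one (log2 fold change 2.098, SE 0.26, adjusted p = 7.08e-11).

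MYOC (1 OF 2), encoding the secreted glycoprotein myocilin, averaged 330.5 ± 66.2 CPM at 3 months and 80.0 ± 23.4 CPM at 1.5 months (log2 fold change 2.02, adjusted p = 8.83e-10). USP28, a deubiquitinating enzyme, and PABPC1B, a poly(A)-binding protein, rose by 1.37 and 1.21 without overlap. CALCOCO2, in mammals a receptor that brings cargo to autophagy, rose by 2.26 and overlapped between the ages. RARGA, a retinoic acid receptor, had 82 counts over the 3-month libraries and 2 over the 1.5-month libraries, a ratio of 23.4 after allowing for depth (95% counting interval 6.28 to 197). RARGA, USP28, CALCOCO2, FABP3, MYBPC2B, NEB, PSMB6, FTL, TRIM63 (2 OF 2) and ANGPTL4 (2 OF 2) each overlap a neighbouring gene, so some of their reads may belong to it.

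**Figure D4:**
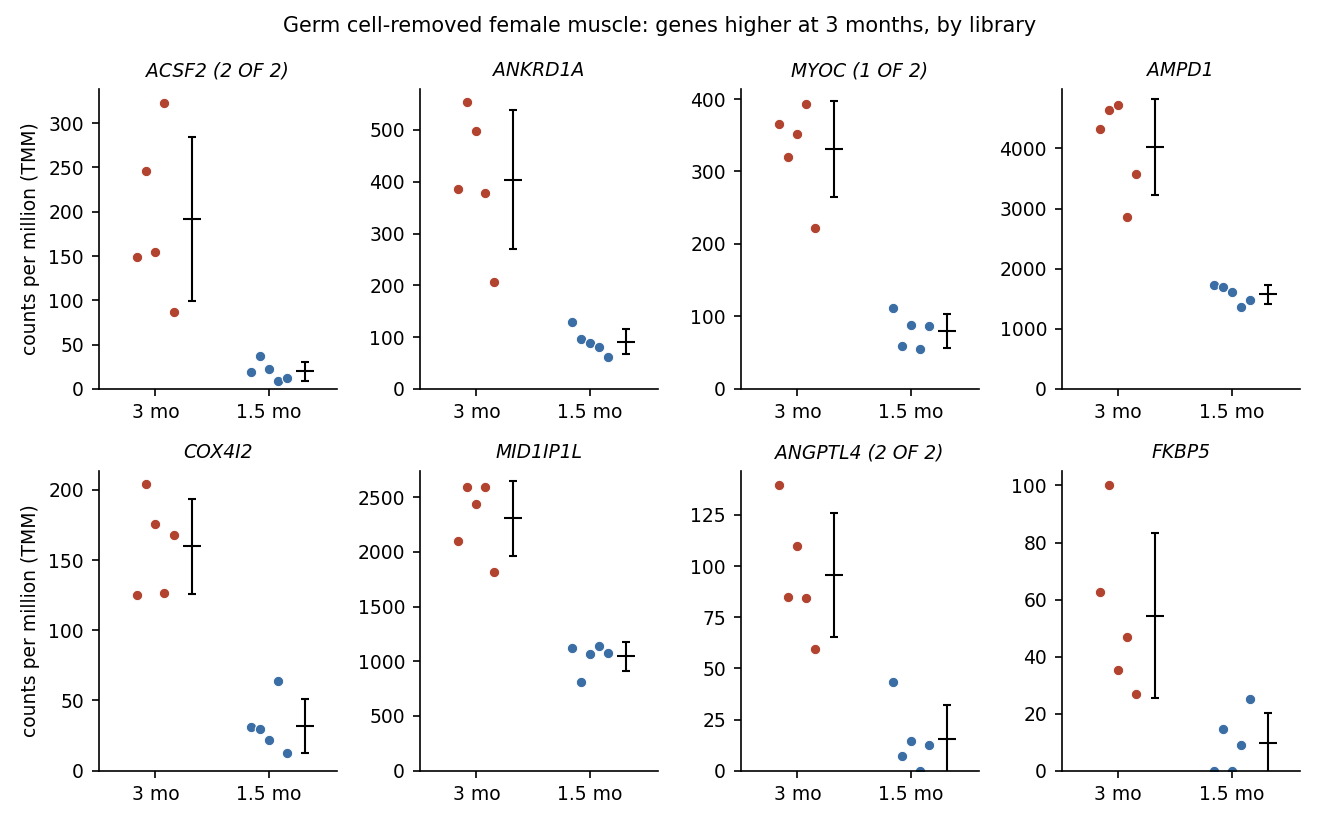
CPM (TMM-scaled) of 8 higher genes in each library of GR female muscle, 3 months left and 1.5 months right, where dots are libraries and bars are the mean ± SD of 5. AMPD1 has no 3-month dot below 2868 CPM and no 1.5-month dot above 1730.4 CPM, and the other 7 genes are also separate.

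Protein synthesis and breakdown were covered by separate lists. Of 78 tested ribosomal protein genes, 75 had a fold change below 0 (median log2 fold change -0.37), where 41.3% of all tested genes were below 0. Among the 78, 15 fell and none rose, a share of 19.2% beside 6.26% of all genes. The list is an abundant one, with a median sum of 97619 CPM at 3 months. Of the 1342 tested genes with the highest average level, 118 were called higher and 137 lower. Beside these, the share of the list called in either direction does not stand out. The count of 15 moved widely with the processing, to 2 lower and 1 higher with plain library sizes and to 31 lower with DESeq2. It was 8 without replicate 3 at 1.5 months, replicate 1 at 3 months or replicate 3 at 3 months, 9 without replicate 4 at 3 months and 24 without replicate 5 at 3 months. RPLP0, of the ribosomal stalk, held its call under every alternative, with 3239.9, 2572, 2094, 2549.8 and 3662 CPM at 3 months, against 7842, 7990.3, 7418, 5137 and 4911 CPM at 1.5 months (log2 fold change -1.24, adjusted p = 2.67e-08). Of 38 translation factors, 3 fell and 2 rose, a share of 13.2%. Plain library sizes gave 1 lower and 14 higher, and the stricter expression filter 4 lower and 6 higher. The elongation factors EEF2 and EEF1B2 (1 OF 2) fell by 0.89 and 0.91.

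Of 29 proteasome and ubiquitin genes, 3 rose and none fell (median log2 fold change 0.48), a share of 10.3% beside 6.26% of all genes. Of the 29 fold changes, 23 were above 0 and 6 below, where 41.3% of all tested genes were below 0. The catalytic subunit gene PSMB6 had 236, 343, 246, 426 and 195 CPM at 3 months, against 129.8, 139.5, 117, 118 and 162 CPM at 1.5 months, without overlap (log2 fold change 1.13, adjusted p = 0.000551). PSMD4B and PSMD12, of the regulatory particle, were called at 2.05 and 1.45. The call of PSMD12 was lost without replicate 3 at 1.5 months or replicate 4 at 3 months (1.04 to 1.66 over such omissions), and no member of the list was called in thinned libraries, against 13 higher with plain library sizes and 1 higher with the stricter expression filter.

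Of 23 genes of atrophy ligases, FOXO targets and autophagy, 3 rose and none fell, a share of 13.0% beside 6.26% of all genes. TRIM55A, a titin-associated ubiquitin ligase, averaged 218 ± 86.4 CPM at 3 months and 96.2 ± 23.5 CPM at 1.5 months (log2 fold change 1.18, adjusted p = 0.00129). CTSD, a lysosomal protease, averaged 101 ± 47.4 CPM at 3 months and 32.9 ± 17.8 CPM at 1.5 months (log2 fold change 1.58, adjusted p = 0.00156). DDIT4 (1 OF 2), an inhibitor of the growth kinase mTORC1, had 38 counts at 3 months and 1 at 1.5 months, a ratio of 21.7 (95% counting interval 3.67 to 880). Both main muscle ligase genes of mammalian atrophy gave no call. TRIM63 (2 OF 2) had 28.9, 219.5, 52.8, 46.8 and 103 CPM at 3 months, against 192, 103, 125, 218 and 212 CPM at 1.5 months (log2 fold change -0.85, adjusted p = 0.0674). FBXO32 was at or under the floor in most libraries (adjusted p = 0.714).

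Of 22 chaperone and heat shock genes, 5 fell and 1 was called higher, a share of 27.3% beside 6.26% of all genes. SERPINH1B, 1 of the 5, is also a member of the collagen and matrix list, so the 2 lists are not separate. The inducible HSPA1A (Nfu_g_1_014930) had 4.81, 0, 17.6, 14.0 and 0 CPM at 3 months, against 142, 44.1, 257, 18.2 and 149.9 CPM at 1.5 months (log2 fold change -3.95, adjusted p = 5.92e-11). Every 3-month library but replicate 3 was at or below its floor of 3 counts, as was replicate 4 at 1.5 months. The size of the change is therefore uncertain. A second row with the symbol HSPA1A fell by 3.31. The sequences of the pair were not compared, so the division of reads between them is uncertain. HSP90AA1.2, a cytosolic HSP90, fell by 1.48 and overlapped between the ages.

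No gene of the growth hormone and IGF axis was called among 10 tested. Of their fold changes 9 were above 0 and 1 below (median log2 fold change 0.98, beside 0.17 for all genes), where 41.3% of all tested genes were below 0. Mean levels were at most 20.6 CPM at either age, near or below the floor, so the list cannot be judged at this depth. IGF1 was not tested, since it had no count in any of the 10 libraries, which allows up to 11.6 to 37.5 CPM per library. FKBP5, a glucocorticoid-induced co-chaperone of steroid receptors, was the 1 call among 10 steroid and nuclear receptor genes (10%, beside 6.26% of all genes). It had 62.6, 100.1, 35.2, 46.8 and 27.0 CPM at 3 months, against 0, 14.7, 0, 9.08 and 25.0 CPM at 1.5 months (log2 fold change 2.68, adjusted p = 0.000360). The 1.5-month libraries held 0 to 2 counts of it, below the floor, so the size of the change is uncertain. No gene of this list was called in thinned libraries or with the stricter expression filter. The vitamin D receptor gene VDRB did not pass the test (log2 fold change -0.40, adjusted p = 0.856).

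Of 14 myogenic and satellite cell genes, 1 fell and 1 rose, a share of 14.3% beside 6.26% of all genes. MYOG, the factor of muscle cell differentiation, fell by 1.68 (25.0 ± 18.1 CPM at 3 months and 83.3 ± 41.2 CPM at 1.5 months, edgeR adjusted p = 0.00224). Its adjusted p was 0.0879 without the 2 libraries not sampled. MYOD1 (2 OF 2), which commits cells to muscle, had a log2 fold change of 0.19 (adjusted p = 0.953). Of 27 antioxidant and stress genes, 4 rose and 1 fell, a share of 18.5%. The higher count was 1 in thinned libraries or without the 2 libraries not sampled, and 6 with plain library sizes. The lower gene, FOS, had 1 count over the 3-month libraries and 11 over the 1.5-month libraries. No member was called lower with DESeq2, in thinned libraries or with the stricter expression filter. The summed level of the 27 genes was 1731 to 2103 CPM at 3 months, against 1050 to 1625 CPM at 1.5 months. The ferritin gene FTL had 323, 219.5, 211, 360.2 and 265 CPM at 3 months, against 154, 176, 132, 127 and 112 CPM at 1.5 months (log2 fold change 0.95, adjusted p = 0.00519). Of 15 clock genes 1 was called, the repressor CRY1, a share of 6.67% beside 6.26% of all genes. CRY1 had 42.8 ± 4.76 CPM at 3 months and 13.2 ± 6.82 CPM at 1.5 months (edgeR adjusted p = 0.0303). CRY1 lost its call without replicate 1 or 2 at 1.5 months or replicate 3 at 3 months, and its log2 fold change was 1.49 to 1.99 over the omissions of single libraries. Of 15 cell cycle genes 1 was called (6.67%, again beside 6.26% of all genes) and of 12 interferon genes none.

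Markers of other tissues were counted as well. Beside 3.17% of all genes, 2 of 13 tested liver markers rose, the fibrinogen genes FGG (log2 fold change 1.87, adjusted p = 0.00382) and FGB (1.54, adjusted p = 0.0366), and the summed level was 319 to 1146 CPM at 3 months and 191 to 825 CPM at 1.5 months (median log2 fold change 0.69). Of 4 tested nerve and Schwann cell markers, 1 fell, PMP22B, where 3.09% of all genes fell. No marker of exocrine pancreas, red blood cells, leukocytes, endothelium, skin, fat, pigment cells or gonad was called. The median log2 fold change was 0.80 over 4 tested red blood cell markers and 0.66 over 6 tested markers of endothelium and smooth muscle, beside 0.17 over all genes. The endothelium and smooth muscle markers summed to 179 to 238 CPM at 3 months and 109 to 191 CPM at 1.5 months, and with plain library sizes to 180 to 288 CPM at 3 months and 92.8 to 149.96 CPM at 1.5 months, without overlap on the plain scale. The part of these cells in the results was not tested.

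The same ages were compared in control females, with which the GR libraries share no sample. There 232 of 5611 genes (4.13%) were called, 87 higher (1.55%) and 145 lower (2.58%). Of the 336 genes called in GR females, 332 were tested in controls, 320 had the same sign and 142 were called, which is 42.3% of the 336 and 61.2% of the 232. Of the 232, only 203 were tested in GR females. Among all 4902 genes tested in both, 3110 (63.4%) had the same sign. Over the genes called lower in GR females, the median log2 fold change was -1.24 in GR females and -0.93 in control females, and over those called higher it was 1.62 in GR females and 0.91 in control females. These genes were picked on the GR libraries, so their sizes there are not independent of the choice.

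Collagens were lower with age in control females too. COL1A2 fell by 2.42 there (SE 0.22, edgeR adjusted p = 4.35e-07). Of 55 tested list members 19 fell, where 2.58% of all genes did so, and the median log2 fold change was -0.96. AMPD1 rose by 1.299 (adjusted p = 4.54e-05) and ANKRD1A by 2.43 (adjusted p = 8.77e-06). The test of the difference between GR and control females, an interaction over 20 libraries, called none of 7449 genes with edgeR, and 416 (5.58%) had an unadjusted p under 0.05. DESeq2 also called none, with 190 at an unadjusted p under 0.05. Of the 336 genes, 59 had an unadjusted p under 0.05 in this test, with a median SE of 0.44 on the log2 scale. COL10A1 (1 OF 2) had a difference of -2.72 (SE 0.76, adjusted p = 0.876).

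Ribosomal protein genes had a median log2 fold change of -0.37 in GR females, -0.07 in control females and -0.29 in GR males. In GR females 15 of 78 were called lower, a count that ran from 2 to 31 with the processing. In control females 2 of 78 were called lower (2.56%, beside 2.58% of all genes). In GR males 2 of 78 were called lower, although 75 of the 78 fold changes were below 0, where 43.9% of all tested genes were. The interaction fit of GR and control females gave a median difference of -0.36, beside 0.12 for all genes. Of the 78 differences 77 were below 0, where 45.0% of all tested genes were below 0. None was called, so no single gene passed a test of the difference between GR and control females.

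In GR males, which also share no library with GR females, 179 of 5227 genes (3.42%) were called with age, 100 higher (1.91%) and 79 lower (1.51%). Of the 336 genes, 330 were tested, 317 had the same sign and 115 were called, which is 34.2% of the 336 and 64.2% of the 179. Of the 179, 178 were tested in GR females. Among all 4720 genes tested in both, 3109 (65.9%) had the same sign. COL1A2 fell by 2.52 in GR males (adjusted p = 1.41e-05), and 13 of 51 collagen list members fell, with a median of -0.86.

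The difference in the age effect between GR females and GR males passed the test in 5 of 7179 genes (0.0696%), 1 with a difference above 0 (0.0139%) and 4 below (0.0557%), and in none with DESeq2, the newer edgeR fit, the stricter expression filter or a fit of all 8 muscle groups. ANGPTL4 (2 OF 2), an inhibitor of lipoprotein lipase, had 139.6, 84.7, 110.0, 84.2 and 59.5 CPM in GR females at 3 months, against 43.3, 7.34, 14.7, 0 and 12.5 CPM at 1.5 months. At 1.5 months every GR female library but replicate 1 was below its floor of 3 counts, so the size of the change is uncertain. ANGPTL4 (2 OF 2) rose by 2.42 in GR females (adjusted p = 9.53e-06), and its log2 fold change in GR males was -0.66 (adjusted p = 0.540), a difference of 3.13 (SE 0.65, adjusted p = 0.0217). COL10A1 (1 OF 2) fell by 5.50 in GR females and by 2.60 in GR males, with a fitted difference of -2.82 (SE 0.62, adjusted p = 0.0362).

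ODC1, which makes putrescine in polyamine synthesis, had 9.63, 15.4, 17.6, 28.1 and 10.8 CPM in GR females at 3 months, against 161, 73.4, 169, 90.8 and 0 CPM at 1.5 months. Replicate 5 at 1.5 months, the shallowest library, was the only one at 0. ODC1 fell by 2.64 in GR females (adjusted p = 3.34e-07), and its log2 fold change in GR males was 0.28 (adjusted p = 0.852), a difference of -2.86 (SE 0.68, adjusted p = 0.0479). In control females ODC1 fell by 2.08.

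The other 2 genes encode digestive proteases of the pancreas. TRY, a trypsin, had a log2 fold change of -1.02 in GR females (adjusted p = 0.0707) and 1.55 in GR males, and CELA1 (1 OF 2), an elastase, had -0.81 in GR females (adjusted p = 0.302) and 1.88 in GR males. Their differences were -2.53 (adjusted p = 0.0479) and -2.67 (adjusted p = 0.0399). CELA1 (1 OF 2) is itself among the exocrine pancreas markers, so their sum is not independent of it. To set the groups side by side, the sums that follow were scaled by TMM factors fitted over all 40 muscle libraries. In GR females the sum was 24.05 to 238 CPM at 3 months and 56.9 to 549 CPM at 1.5 months. In GR males it was 144 to 550 CPM at 3 months and 29.9 to 203 CPM at 1.5 months. In control females it was 87.4 to 796 CPM at 3 months and 103 to 370 CPM at 1.5 months. The ages overlapped in each of these groups, and the part of pancreatic RNA in these 2 results was not tested.

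**Figure D5:**
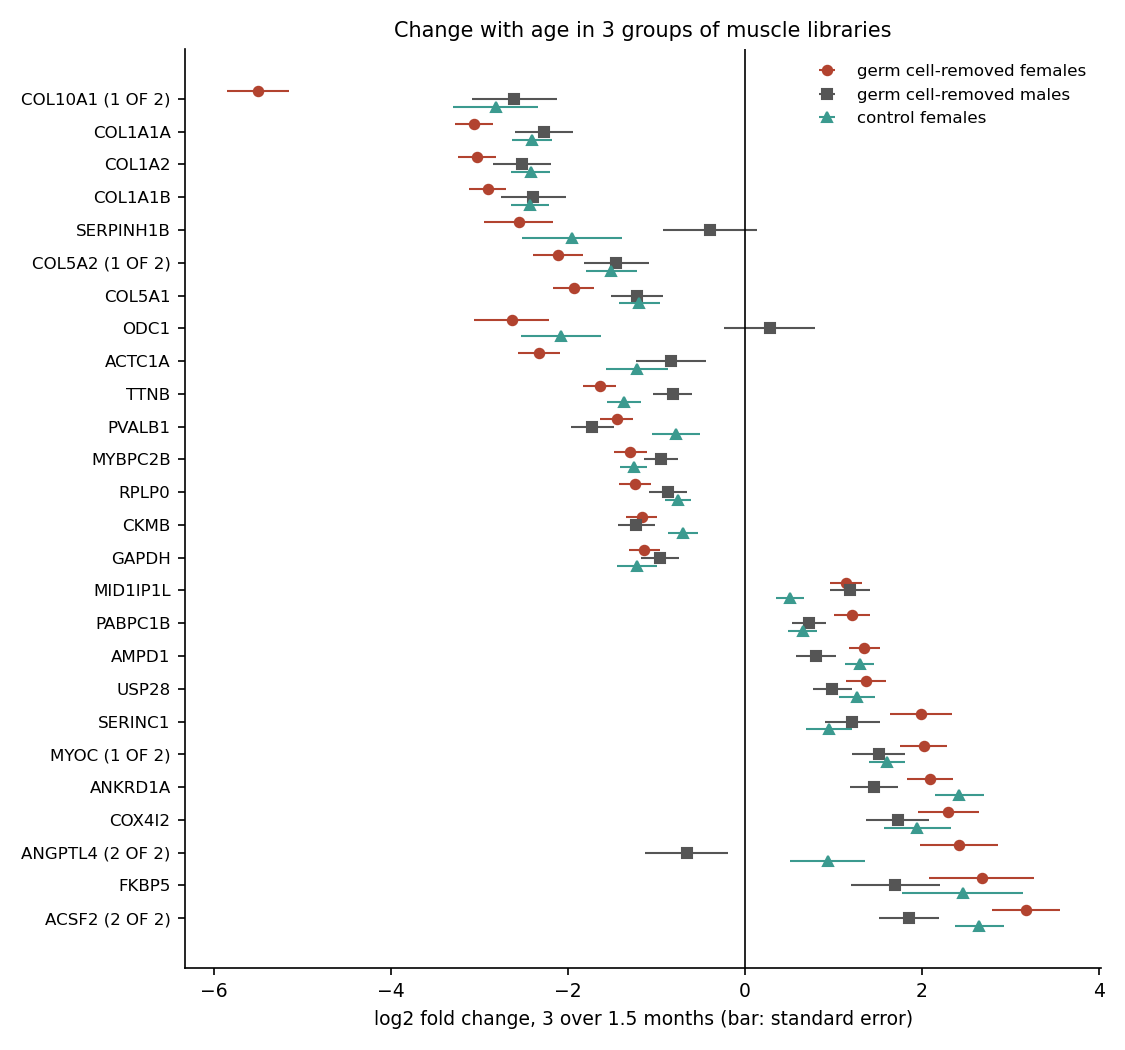
Log2 fold change (3 months over 1.5 months) ± SE of 26 named genes in muscle of GR females, GR males and control females, 5 libraries per age in each. The collagen genes lie below 0 in all 3 groups, and ANGPTL4 (2 OF 2) is at 2.42 in GR females, -0.66 in GR males and 0.94 in control females.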

How the data were processed

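Values were unique molecular counts per gene, deposited by the authors as whole-number counts. The study demultiplexed the reads, sampled most muscle libraries to a common number of reads, trimmed them with Trim Galore 0.6.7, mapped them to the GRZ assembly of the N. furzeri Genome Browser with HISAT2 2.2.1, assigned them to genes with featureCounts 2.0.1 and removed duplicates with UMI-tools. Gene positions are those of that assembly. Of 20406 lines, 18529 carried a gene identifier, and only these were used. The 40 liver columns were not used.

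Genes with at least 10 counts over the libraries compared were tested with edgeR 4.0.16 (quasi-likelihood test, TMM, R 4.3.3) and Benjamini-Hochberg adjustment at 0.05. Each age comparison was fitted on its own 10 libraries and each interaction on 20, and the scripts were tested on simulated data. Log2 fold changes are fitted 3 months over 1.5 months. Intervals and the floor of 3 counts cover counting error only. The members, gene lists and marker lists were chosen with earlier results of these data known. The genes named were taken from the 12 called genes with a symbol of lowest adjusted p in each direction. Up to 6 called genes per list and direction and up to 6 per interaction test were added. Genes that the study measured, by RNA-seq or by RT-qPCR, were added as well. Replicate numbers did not pair the libraries. Some items are not reported here.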

Additional observations from a re-analysis of the deposited data

Results flagged for a closer look

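Among 206 groups of 5 libraries examined for the named genes, 13 held a library far from the other 4, where chance gives about 1 in 20 groups. At 3 months, replicate 5 was high for ACTC1A (Nfu_g_1_018978; 611 CPM, others 112 to 202), TPM1 (1947 CPM, others 894 to 1184) and RPS3A (2337 CPM, others 1544 to 1741). Replicate 4 at 3 months was high for CTSD (182 CPM) and PSMD12 (149.7 CPM), replicate 2 for FBXO32 (61.6 CPM, others 0 to 4.68), and replicate 1 for FOS (4.81 CPM, others 0). At 1.5 months, replicate 4 was high for GAPDH (29387 CPM, others 17773 to 20355) and ENO3 (12388 CPM), replicate 5 was low for LDB3B (1412 CPM) and high for CELA1 (1 OF 2) (237 CPM), and replicate 2 was low for MID1IP1L (815 CPM) and high for DDIT4 (1 OF 2) (7.34 CPM, others 0). The flags of FOS and DDIT4 (1 OF 2) each rest on 1 count, below the floor. A group with 1 count and the rest at 0 is always flagged, so the rate of 1 in 20 does not hold for them.

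The age effect differed between GR females and GR males by the interaction test in 5 genes. The female minus male differences in log2 fold change were 3.13 for ANGPTL4 (2 OF 2), -2.82 for COL10A1 (1 OF 2), -2.86 for ODC1, -2.67 for CELA1 (1 OF 2) and -2.53 for TRY.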

How the results depend on the processing

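In GR females, 336 genes were called with age. Plain library sizes gave 726 (643 higher, 83 lower), libraries thinned to the smallest total 161, DESeq2 284 (113 higher, 171 lower), and the omission of each library in turn 255 to 418. The count was 323 with the newer edgeR fit and 295 without the 2 libraries not sampled (122 higher, 173 lower), both chosen after seeing the data. Under the replicate block 267 were called, but same-numbered libraries of the 2 ages did not deviate together (correlations -0.0597 to -0.000349), and no library matched its own number best. The planned older edgeR fit is the default of the version used, so it gave no separate value. The 13 abundant genes, chosen on the same libraries, took the lower share at 3 months in every omission.

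In control females, 232 were called, with 417 when every gene with a count was tested, 363 under the replicate block and 126 to 235 over the omissions, the lowest being 126 without replicate 3 at 3 months, 127 without replicate 5 at 3 months and 153 without replicate 3 at 1.5 months. The interaction with germ cell removal gave 10 when every gene was tested, 1 in thinned libraries, 1 under the replicate block and 0 to 4 over the omissions (4 without control replicate 2 at 1.5 months). In GR males 179 were called, 519 with plain library sizes and 112 to 246 over the omissions, with 112 without replicate 2 at 1.5 months, 117 without replicate 4 at 1.5 months and 115 without replicate 5 at 3 months. The interaction with sex gave 5, but 3 with relative log expression factors, 3 in thinned libraries, 10 under the replicate block, 0 to 10 over the omissions, and 0 with DESeq2, the newer edgeR fit, the stricter filter or all 8 groups in 1 fit.

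Of 94 called named genes, 52 kept their call and direction under every alternative and 42 lost the call in at least 1, among them 26 in thinned libraries, 21 in the omission of a library and 16 with plain library sizes. DGAT1B turned to -0.0037 in thinned libraries. Of the uncalled genes, VDRB (log2 fold change -1.23 to 0.16 over the omissions, positive without replicate 4 at 1.5 months) turned to 0.083 with plain library sizes and 0.25 without the 2 libraries not sampled. FBXO32 ranged over the omissions between -3.04 and 0.50 (without replicate 5 at 1.5 months) and turned to 2.51 without those 2 libraries. MYOD1 (2 OF 2) ranged between -0.19 (without replicate 5 at 3 months) and 0.56. The causes were not tested. Genes under the floor of 11.6 to 37.5 CPM cannot be judged at this depth.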
